A study of Mus musculus with 16 samples.

Results

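A set of 7 genes of cholesterol synthesis and its control, namely Hmgcs1, Sqle, Insig1, Srebf2, Fdft1, Lss and Cyp51, were followed across brown adipose tissue (BAT) and gonadal white adipose tissue (gWAT) of mice lacking the glycolytic enzyme Pgam1 in adipocytes. They were chosen by name, as the genes whose RefSeq accession on the array matched these symbols, and all 7 of 7 were found among the 22911 genes that the array's probes could be matched to. None of the 7 takes up cholesterol from outside the cell, so uptake was described with genes from separate lists. The Adipo-Pgam1 KO mice carried Adipoq-Cre, which is driven by the adiponectin promoter and acts in adipocytes of both tissues, together with Pgam1 flox/flox. Their littermate controls were Cre-negative Pgam1 flox/flox mice, so both genotypes carried the floxed alleles. All mice were male C57BL/6NCrSlc and 16 weeks of age, except that the labels give 14 weeks for the KO samples numbered 4, in BAT and gWAT alike. RNA of each tissue was hybridised to 1-colour arrays, 4 per tissue and genotype and 16 in all, and a level below is the log2 of a probe's intensity over the 75th percentile of its array. Whole tissue was measured, so fewer cells of a type and less RNA per cell cannot be told apart.

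Cells make cholesterol from acetyl-CoA through mevalonate and squalene. Hmgcs1 makes HMG-CoA early in that route, Fdft1 joins farnesyl units into squalene, Sqle oxidises squalene, Lss closes it into lanosterol, and Cyp51 removes the first methyl group of lanosterol. Srebf2 encodes SREBP2, the transcription factor that raises these enzymes when sterol in the endoplasmic reticulum is low, and Insig1 holds the SREBP precursors there when sterol is high. Adipocytes store much of their cholesterol unesterified in the lipid droplet and membranes, and they take up lipoprotein cholesterol besides making it.

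RefSeq promoter windows of GRCm38.p6, from 250 bases before to 50 bases after the start of the gene, were at hand for 5 of the 7 members. The windows were searched on both strands for TCACNCCAC, a core of the sterol regulatory element that SREBPs bind, for CCAAT, the box bound by NF-Y, and for CACGTG, an E-box. The 250 bases before the start are shown for 3 members whose transcripts behaved differently in the comparisons that follow, with motif matches in capitals (ATTGG is CCAAT on the other strand). The Hmgcs1 stretch is at chr13:119690101-119690350 on the + strand, the Insig1 stretch at chr5:28071162-28071411 on the + strand and the Lss stretch at chr10:76531355-76531604 on the + strand.
Hmgcs1: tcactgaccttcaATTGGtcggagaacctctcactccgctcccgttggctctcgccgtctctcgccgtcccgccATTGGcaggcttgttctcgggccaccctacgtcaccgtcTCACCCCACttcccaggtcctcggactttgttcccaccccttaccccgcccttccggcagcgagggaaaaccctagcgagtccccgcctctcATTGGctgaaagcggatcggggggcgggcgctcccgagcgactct
Insig1: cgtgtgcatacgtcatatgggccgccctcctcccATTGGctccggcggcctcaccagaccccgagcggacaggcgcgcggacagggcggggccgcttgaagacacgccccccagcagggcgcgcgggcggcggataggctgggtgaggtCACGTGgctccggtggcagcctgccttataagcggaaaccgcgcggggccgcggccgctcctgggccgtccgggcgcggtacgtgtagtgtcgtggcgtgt
Lss: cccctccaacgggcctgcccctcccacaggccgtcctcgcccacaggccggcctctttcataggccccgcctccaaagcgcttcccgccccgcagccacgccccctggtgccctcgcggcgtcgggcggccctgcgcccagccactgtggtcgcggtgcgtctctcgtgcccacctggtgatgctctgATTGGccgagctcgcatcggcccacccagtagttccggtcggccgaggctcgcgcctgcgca
TCACNCCAC was found in the Hmgcs1 window alone among the 5, beginning 137 bases before the start, and 1.24% of all 32851 promoter windows held it. CACGTG was found in the Insig1 window alone, beginning 101 bases before the start, and 7.15% of all windows held it. All 5 member windows held CCAAT, as did 37.4% of all windows, and Hmgcs1 held 4 copies, 1 of them after the start and so outside the printed stretch. These matches describe letters in a window and were not tested for binding.

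Pgam1 itself was read first as a check of the labels. In BAT it stood between 7.82 and 8.07 on the control arrays and from 6.03 to 6.43 in the KO mice, a log2 change of -1.74 (SE 0.11, adjusted p = 1.11e-05 in limma). In gWAT it stood between 5.07 and 5.67 on the control arrays and from 5.95 to 6.50 on the arrays with the KO label, a change of 0.95 (SE 0.19, adjusted p = 0.0139). That gWAT call was lost with the slide as a block (0.75, adjusted p = 0.248) and with the replicate block (0.95, adjusted p = 0.0514), though all 4 arrays with the KO label lay above the control that shared their slide. Pgam1 was thus higher, not lower, where gWAT carried the KO label, so every gWAT direction given here rests on that label. The arrays lay on 3 slides: 3 of the BAT controls lay on a slide of their own, and the BAT control of replicate 4 shared a slide with the 4 BAT KO arrays and 3 gWAT controls. The gWAT control of replicate 4 shared the remaining slide with the 4 gWAT arrays labelled Adipo-Pgam1 KO. Slide and genotype therefore overlap heavily, and values with the slide as a block compare the KO arrays with 1 control array.

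In BAT, the members moved in both directions. Fdft1 and Insig1 fell, to 0.227 and 0.32 of the control level, while Sqle and Lss rose to 2.71 and 1.62 times the control level. Hmgcs1, Cyp51 and Srebf2 did not pass the test. Of the 7 members, 4 were called at an adjusted p under 0.05, and 61.5% of all 14280 genes tested in BAT were called, so the members were called about as often as genes in general. The median log2 change was -0.32 over the members and -0.081 over all genes tested. The genotypes did not overlap for 4 of the 7 members, as against 57.1% of all genes tested. All changes are relative to the 75th percentile of each array. Scaling on spike-in probes moved the median of all genes in BAT from -0.08 to 0.46, and scaling on Actb and Rplp0 moved it to -0.67. Under both, Fdft1, Insig1, Sqle and Lss kept their direction, and the called members were 3 higher and 2 lower with spike-in scaling and 1 higher and 4 lower with Actb and Rplp0.

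**Figure D1:**
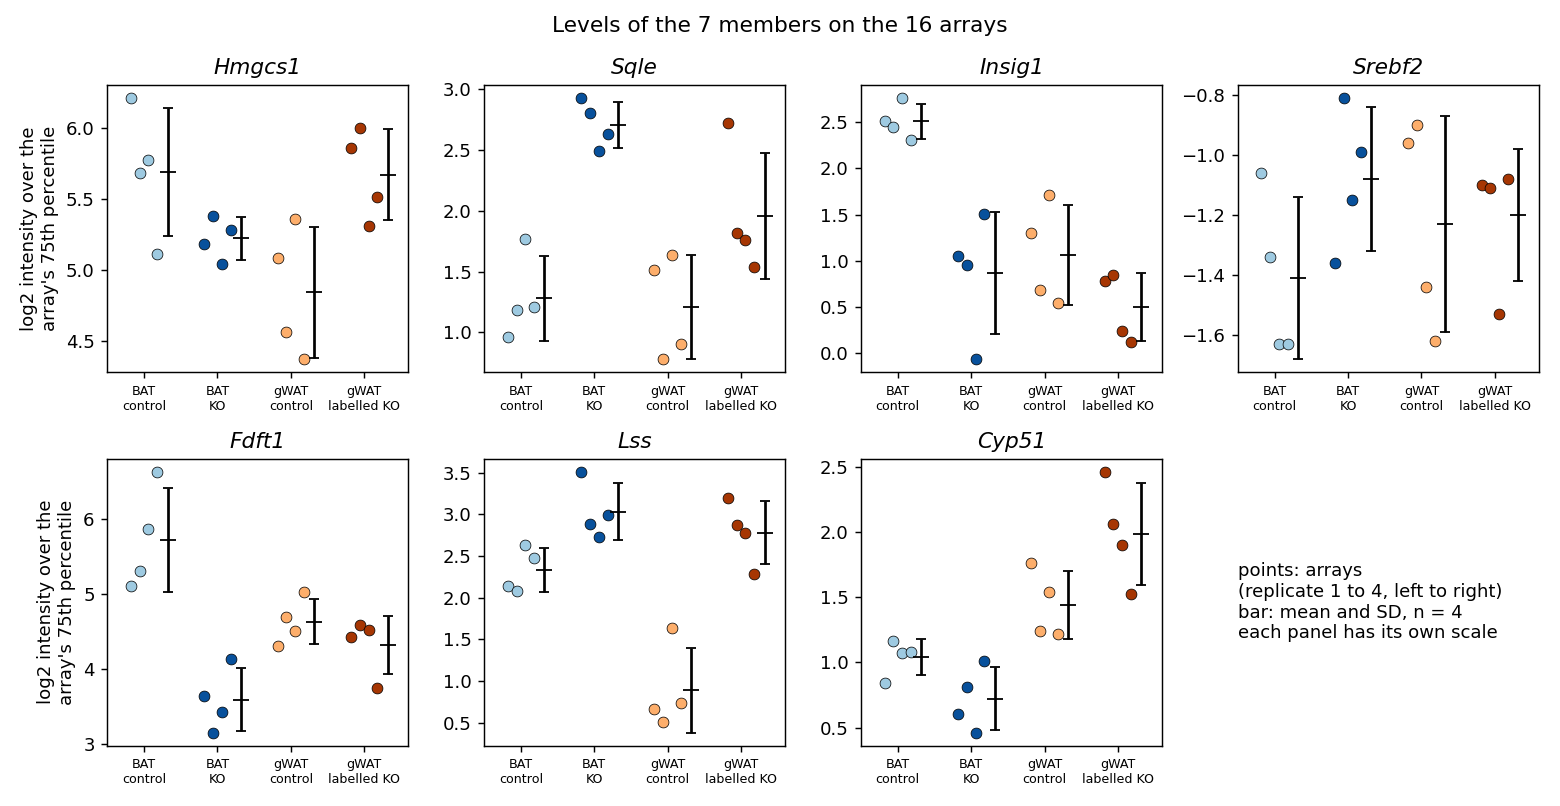
Level of each member on every array, as log2 intensity over the array's 75th percentile, in BAT and gWAT of littermate controls and of mice labelled Adipo-Pgam1 KO; points are arrays and the bar is the mean with SD (n = 4), each panel having its own scale. Fdft1 and Insig1 stood highest in BAT controls. On the brightest probe, shown here, Lss stood lowest in gWAT controls. The Srebf2 arrays of all 4 groups overlapped.

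Fdft1, squalene synthase, stood at 5.10, 5.30, 5.87 and 6.63 on the 4 BAT control arrays and at 3.64, 3.15, 3.43 and 4.13 in BAT of KO mice. All 4 KO arrays lay below all 4 controls, and the highest control was the one that shared the slide of the KO arrays. Its log2 change was -2.14 (SE 0.34, 95% interval -2.92 to -1.35, adjusted p = 0.000727). A second Fdft1 probe gave a change of -2.21. With the slide as a block the change was -3.04 (adjusted p = 0.00115).

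Insig1, which restrains SREBP processing and is itself a target of SREBPs, stood at 2.51, 2.45, 2.76 and 2.31 in BAT of controls and at 1.05, 0.96, -0.06 and 1.51 in BAT of KO mice. The controls lay close together and the KO arrays spread over a wider range below them. The log2 change was -1.64 (SE 0.30, 95% interval -2.32 to -0.97, adjusted p = 0.00137), and the array carries 1 probe for the gene.

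Sqle, squalene epoxidase, stood at 0.96, 1.18, 1.77 and 1.21 in BAT of controls and at 2.93, 2.81, 2.49 and 2.63 in BAT of KO mice. The genotypes did not overlap, and the KO arrays were the tighter group. The log2 change was 1.44 (SE 0.18, 95% interval 1.02 to 1.85, adjusted p = 0.000191). Sqle acts on the product of Fdft1, so the transcripts of neighbouring steps changed in opposite directions in whole BAT.

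Lss, lanosterol synthase, stood at 2.14, 2.08, 2.63 and 2.47 in BAT of controls and at 3.51, 2.88, 2.73 and 2.99 in BAT of KO mice. The groups did not overlap, though the lowest KO array and the highest control lay close to each other. The log2 change was 0.70 (SE 0.20, 95% interval 0.25 to 1.14, adjusted p = 0.0131). This call depended on the probe and on the processing. The array carries 3 Lss probes, all well above background on 16 of 16 arrays; the second changed by 0.58 (two-sided exact permutation p = 0.0571) and the dimmest, A_52_P118161, by -0.27 (two-sided exact permutation p = 0.543). Averaged over the probes, Lss changed by 0.34 in BAT (adjusted p = 0.238 in limma), with the slide as a block by 0.56 (adjusted p = 0.187), and after scaling on Actb and Rplp0 by 0.11 (adjusted p = 0.704).

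**Figure D2:**
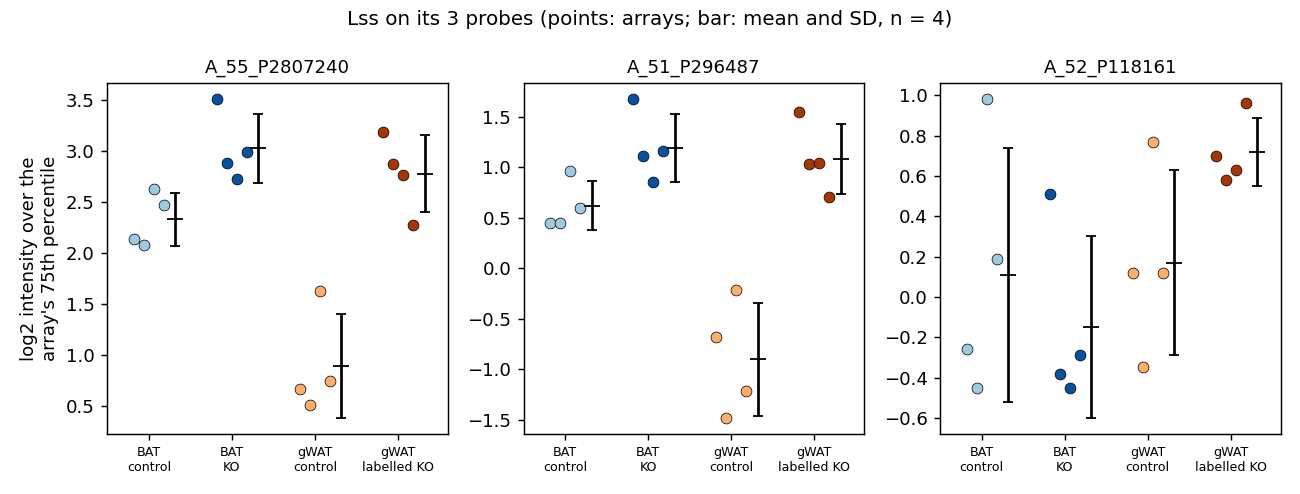
Level of Lss on each of its 3 probes, as log2 intensity over the array's 75th percentile, by tissue and genotype; points are arrays and the bar is the mean with SD (n = 4). In gWAT the 2 brighter probes changed by 1.89 and 1.98 with no overlap between genotypes, while A_52_P118161 changed by 0.55 with overlapping arrays.

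The remaining 3 members did not pass the test in BAT. Hmgcs1, the HMG-CoA synthase of the cytosol, stood at 6.21, 5.68, 5.77 and 5.11 in controls and at 5.18, 5.38, 5.04 and 5.28 in Adipo-Pgam1 KO mice (log2 change -0.47, 95% interval -0.96 to 0.01, adjusted p = 0.0838). The control within the KO range was the one on the KO slide. Without it the change was -0.67 (adjusted p = 0.00681), and with the slide as a block it was 0.12 (adjusted p = 0.699). Cyp51 stood between 0.84 and 1.16 in controls and from 0.46 to 1.01 in KO mice (log2 change -0.32, 95% interval -0.64 to 0.00, adjusted p = 0.075). Without the 14-week KO array, Cyp51 changed by -0.41 (adjusted p = 0.0251). Srebf2 stood between -1.63 and -1.06 in controls and from -1.36 to -0.81 in KO mice (log2 change 0.34, 95% interval -0.04 to 0.72, adjusted p = 0.11), and without control replicate 1 it changed by 0.46 (adjusted p = 0.0374). The estimates of Hmgcs1 and Cyp51 turned positive with spike-in scaling (0.07 and 0.22) and that of Srebf2 turned negative with Actb and Rplp0 scaling (-0.25).

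In gWAT, Lss rose and no other member passed the test. Lss reached 3.71 times the control level, and Hmgcs1, Sqle and Cyp51 had positive estimates of 1.78, 1.68 and 1.46 times the control level with adjusted p between 0.0511 and 0.112. The call of 1 of 7 members stood against 17.8% of all 14149 genes tested in gWAT. The median log2 change was 0.55 over the members and 0.047 over all genes tested. The genotypes did not overlap for 1 member, as against 24.1% of all genes tested.

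Lss stood at 0.66, 0.51, 1.63 and 0.74 in gWAT of controls and at 3.19, 2.87, 2.77 and 2.28 on the gWAT arrays with the KO label. Every KO array lay above every control, and control replicate 3 was the highest of its group. The log2 change was 1.89 (SE 0.28, 95% interval 1.26 to 2.53, adjusted p = 0.00509). With the slide as a block the change was 2.04 and no longer passed (adjusted p = 0.0879). On the 3 probes the changes were 1.89, 1.98 and 0.55.

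Hmgcs1 stood at 5.08, 4.56, 5.36 and 4.37 in gWAT of controls and at 5.86, 6.00, 5.31 and 5.51 in the arrays labelled Adipo-Pgam1 KO. The groups overlapped only through the highest control, replicate 3, and the lowest KO array, replicate 3. The log2 change was 0.83 (SE 0.25, 95% interval 0.26 to 1.40, adjusted p = 0.0511), and it passed without control replicate 3 (adjusted p = 0.0361). Sqle stood between 0.78 and 1.64 in controls and at 2.72, 1.82, 1.76 and 1.54 in the KO arrays, with replicate 1 highest (log2 change 0.75, 95% interval 0.08 to 1.42, adjusted p = 0.109). Cyp51 stood between 1.22 and 1.76 in controls and at 2.46, 2.06, 1.90 and 1.52 in the KO arrays (log2 change 0.55, 95% interval 0.05 to 1.04, adjusted p = 0.112). The lowest Cyp51 array was that of the 14-week mouse, without which the change was 0.70 (adjusted p = 0.0395). These intervals were computed before adjustment over all genes, and they leave out 0 although the adjusted p missed the threshold.

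Insig1 in gWAT stood between 0.54 and 1.71 in controls and from 0.12 to 0.85 in the KO arrays (log2 change -0.56, 95% interval -1.22 to 0.10, adjusted p = 0.207). Fdft1 stood between 4.31 and 5.02 in controls and from 3.74 to 4.58 in the KO arrays (log2 change -0.31, 95% interval -0.83 to 0.20, adjusted p = 0.359). Srebf2 stood between -1.62 and -0.90 in controls and from -1.53 to -1.08 in the KO arrays (log2 change 0.03, 95% interval -0.42 to 0.48, adjusted p = 0.931). The interval of Srebf2 holds folds from 0.748 to 1.40, and a change of either direction within that range was not excluded.

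**Figure D3:**
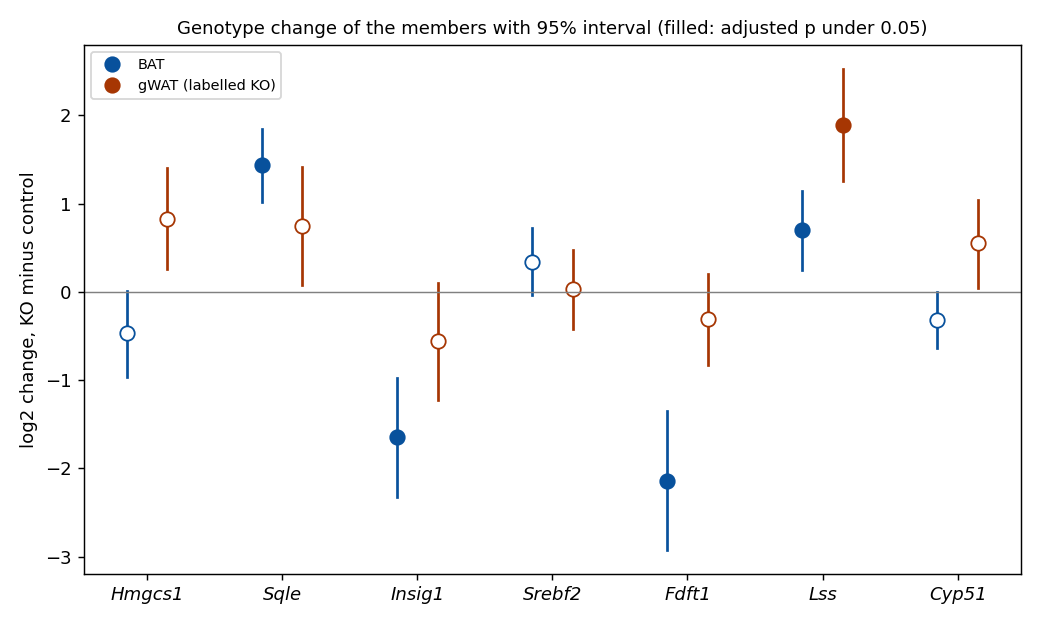
Log2 change between mice labelled Adipo-Pgam1 KO and littermate controls for each member in BAT and in gWAT, with the 95% interval of the limma fit (n = 4 arrays a group); filled points passed an adjusted p of 0.05. Fdft1 and Insig1 lie well below 0 in BAT, Lss lies above 0 in both tissues, and Hmgcs1 and Cyp51 lie below 0 in BAT (above 0 with spike-in scaling) and above 0 in gWAT.

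The difference between the tissues was tested directly, as the genotype change in gWAT minus that in BAT over all 16 arrays. Fdft1, Hmgcs1, Lss and Cyp51 passed, each with the more positive change in gWAT. Of the 7 members, 4 were called, and all 4 in that direction, where 48.3% of all 14820 genes tested were called, 27.4% more positive and 21% more negative in gWAT. Quantile normalization called 3 members and median centring or scaling on Actb and Rplp0 called 5, none of them more negative. The median difference was 1.09 over the members and 0.075 over all genes tested. Fdft1 differed by 1.82 (SE 0.44, adjusted p = 0.00353), having fallen in BAT and not passed in gWAT. Hmgcs1 differed by 1.30 (SE 0.35, adjusted p = 0.00665) and Cyp51 by 0.87 (SE 0.27, adjusted p = 0.0151), although neither passed the test within a tissue. Lss differed by 1.20 (SE 0.36, adjusted p = 0.0134), its rise being larger in gWAT. Insig1 differed by 1.09 (95% interval 0.14 to 2.03, adjusted p = 0.0558), Sqle by -0.68 (95% interval -1.47 to 0.10, adjusted p = 0.139) and Srebf2 by -0.31 (95% interval -0.88 to 0.27, adjusted p = 0.361). With the slide as a block Fdft1 kept its call (difference 2.34, adjusted p = 0.0121), while Hmgcs1 (1.18, adjusted p = 0.0729), Lss (1.48, adjusted p = 0.0954) and Cyp51 (1.13, adjusted p = 0.0803) did not. Leaving out gWAT KO replicate 1 moved Sqle to -0.94 (adjusted p = 0.0246). Leaving out BAT KO replicate 4, gWAT control replicate 3 or gWAT KO replicate 4 moved Insig1 past the threshold (1.30, 1.30 and 1.21).

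In littermate controls, BAT and gWAT differed in 5 of the 7 members (4 higher and 1 lower in BAT), where 64.7% of all 14304 genes tested differed, 35.4% higher and 29.3% lower in BAT. The tissues did not overlap for 4 of the 7, as against 60.8% of all genes tested. With quantile normalization 2 members were higher and 1 lower. With Actb and Rplp0 scaling, median centring or the mean over all probes of a gene 4 were higher and none lower. Insig1 and Lss stood 2.74 and 2.72 times higher in BAT (log2 differences 1.45 and 1.45, adjusted p = 0.00115 and 0.00112), and Fdft1 2.13 times higher (1.09, adjusted p = 0.0169). The Lss difference depended on the probe. The second Lss probe stood at 0.62 in BAT and -0.90 in gWAT of controls. On the dimmest, A_52_P118161, the control tissues overlapped, at 0.11 and 0.17. Hmgcs1 was higher in BAT by 0.85 (adjusted p = 0.027) and Cyp51 lower by 0.40 on the log2 scale (log2 difference -0.40, adjusted p = 0.044). The Hmgcs1 call was lost without any one of BAT control replicates 1, 2 and 3 or gWAT control replicates 2 and 4 (adjusted p from 0.054 to 0.0683). BAT control replicates 1, 2 and 3 lay on a slide without gWAT arrays, so tissue and slide overlap here too. With the slide as a block, 1 BAT control was compared with the gWAT controls of its slide. The log2 difference was then 0.11 for Hmgcs1, 1.08 for Insig1 and 2.13 for Fdft1. The Cyp51 call was lost without any one of the 4 BAT controls or of gWAT control replicates 1 and 3 (adjusted p from 0.058 to 0.113). Sqle (0.07, 95% interval -0.49 to 0.63) and Srebf2 (-0.18, 95% interval -0.65 to 0.29) did not pass.

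Ordered by their means, the 4 groups stood apart at few steps. For Fdft1 the order rose from BAT of KO mice (3.59 ± 0.42, SD, n = 4) through gWAT labelled KO (4.32 ± 0.39) and gWAT of controls (4.63 ± 0.30) to BAT of controls (5.72 ± 0.69), and only the last step had no overlap between neighbouring groups. Insig1 likewise had its single gap below BAT of controls (2.51 ± 0.19, SD, n = 4), with gWAT labelled KO (0.50 ± 0.37), BAT of KO mice (0.87 ± 0.66) and gWAT of controls (1.06 ± 0.54) overlapping. For Lss, on its brightest probe, the gap lay above gWAT of controls (0.89 ± 0.51, SD, n = 4), and BAT of controls, gWAT labelled KO and BAT of KO mice followed at 2.33 ± 0.26, 2.78 ± 0.38 and 3.03 ± 0.34, each overlapping the next. That gap was absent on the dimmest Lss probe, where the controls of the tissues overlapped. Cyp51 had its gap between the tissues, with BAT of KO mice (0.72 ± 0.24, SD, n = 4) and of controls (1.04 ± 0.14) below gWAT of controls (1.44 ± 0.26) and gWAT labelled KO (1.98 ± 0.39). For Sqle, Hmgcs1 and Srebf2 each group overlapped its neighbours in the order.

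Several marker lists of cell types moved with genotype as well. Over all genes tested, 61.5% were called in BAT and 17.8% in gWAT. None of 4 endothelial and 2 red blood cell markers was called in either tissue. All 8 adipocyte markers were well above background on every array, and so were all 8 brown adipocyte markers in BAT. In BAT its summed linear level went from 2440 to 2670 in controls to 817 to 1160 in Adipo-Pgam1 KO mice, with 7 of 8 markers lower, among them Cidec (-2.40, adjusted p = 5.46e-06). The brown adipocyte list went from 3220 to 3440 to 1130 to 1840, with 6 of 8 lower, among them Ucp1 (-1.27, adjusted p = 0.000308). The macrophage list went from 27.9 to 39.6 to 102 to 149, with 8 of 9 higher, among them Adgre1 (2.84, adjusted p = 3.16e-05), and all 4 fibroblast markers were higher. In gWAT the brown adipocyte list went from 11.9 to 20.3 in controls to 64.7 to 175 where the label was KO. Of its 8 markers 5 were tested there, and Cidea (3.41), Elovl3 (4.35) and Cox7a1 (2.18) were called higher. Ppargc1a (-0.52) and Prdm16 (0.11) did not pass, and Ucp1, Dio2 and Zic1 did not enter the test. Elovl3 was well above background on 3 of 4 gWAT control arrays and entered the test through the KO arrays. Ucp1 was not well above background on the gWAT control arrays. The gWAT macrophage list spanned 68.0 to 92.5 in controls and 74.7 to 239 in the KO arrays, where the 14-week array was highest, with Adgre1 at 4.17. Of its 9 markers 3 rose in gWAT with no overlap, namely Gpnmb (3.15, adjusted p = 0.0166 in limma), Trem2 (1.72, adjusted p = 0.0469) and Cd68 (1.48, adjusted p = 0.0365). The other 6 were not called, and the genotypes did not overlap for 24.1% of all genes tested in gWAT. Of the adipocyte markers, Adipoq (-0.89) and Retn (-0.95) fell there. Of the 4 fibroblast markers, Dpt (-1.04) fell in gWAT and 3 were not called. The skeletal muscle list spanned 0.846 to 76.0 over the BAT KO arrays, with Ckm at 1.19 and -1.76 in replicates 1 and 3 and not above -5.72 in the others. In gWAT that list spanned 3.28 to 24.3 in controls and 29.7 to 58.1 in the KO arrays. Acta1 did not overlap there (2.20, adjusted p = 0.0503 in limma), and Ckm was not well above background on any array. Of the 4 muscle markers tested in gWAT none was called, and Acta1 alone had a positive estimate, while 3 had negative estimates. The epididymis and testis list spanned 0.129 to 12.7 over gWAT controls and 0.286 to 1.19 over the KO arrays, with Prm1 at 2.68 in control replicate 1. The part of these shifts in the members' changes was not tested.

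The wider pathway was read from lists of other synthesis enzymes, SREBP control, uptake with lysosomal release, and esterification with efflux. In BAT, 5 of 10 genes of esterification and efflux rose, among them Soat2 against signal below background, while 2 of 14 synthesis enzymes rose and 8 fell. Of all 40 genes tested, 10 rose and 16 fell, where 27.5% of all genes rose and 34% fell. This split depended on the scaling: with spike-in scaling 22 rose and 3 fell, and with Actb and Rplp0 scaling 6 rose and 22 fell. In gWAT, 9 rose and none fell, where 9.99% of all genes rose and 7.85% fell, and with quantile normalization 7 rose and 3 fell. The median log2 change over the 40 genes was -0.01 in BAT and 0.17 in gWAT.

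Among 14 synthesis enzymes outside the members, 2 rose and 8 fell in BAT, where 27.5% of all genes tested rose and 34% fell. With spike-in scaling 6 rose and 3 fell. Pmvk, phosphomevalonate kinase, fell by 1.65 on the log2 scale (log2 change -1.65, SE 0.23, adjusted p = 0.000341). Tm7sf2 (-1.22), a reductase of late sterol intermediates, Idi1 (-1.02), the isopentenyl diphosphate isomerase, and Nsdhl (-0.98), a dehydrogenase that acts after Cyp51, fell too. The Nsdhl call was lost with spike-in scaling (-0.44, adjusted p = 0.158). Lbr, a sterol reductase that is also a receptor of the nuclear lamina, rose (1.15, adjusted p = 3.32e-05). In gWAT, 4 rose and none fell, namely Dhcr7 (1.44), Sc5d (1.32), Mvd (1.07) and Fdps (0.90), where 9.99% of all genes tested rose and 7.85% fell. Of 8 fits that each left out 1 array, Sc5d kept its call in 8, Dhcr7 in 7, Mvd in 6 and Fdps in 2. By the methods' t-test Dhcr7 (adjusted p = 0.0528), Mvd (0.0566) and Fdps (0.0663) did not pass. With quantile normalization or Actb and Rplp0 scaling 4 rose and 1 fell there. Sc5d, a desaturase near the end of the route, stood between 3.15 and 3.70 in gWAT controls and from 4.41 to 5.06 in the KO arrays (adjusted p = 0.00481). Dhcr7, which makes cholesterol in the last step of one branch, fell in BAT (-0.87) and rose in gWAT, a difference of 2.30 (SE 0.37, adjusted p = 0.000198). Over the list, the change was more positive in gWAT for 8 of 14 genes and more negative for 1, Lbr, where 27.4% and 21% of all genes were called in those directions. The 8 became 11 with Actb and Rplp0 scaling, 6 with quantile normalization or spike-in scaling and 4 with the slide as a fixed block.

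Among 8 genes of SREBP control, 1 rose and 3 fell in BAT, where 27.5% of all genes tested rose and 34% fell. Mbtps2, the protease of the second cut, rose (0.67), and Scap (-0.55), the escort of the precursors, Mbtps1 (-0.46), the protease of the first cut, and Insig2 (-0.45) fell. These directions depended on the scaling: with spike-in scaling 5 genes of this list rose and none fell, with Mbtps1 at 0.08, Insig2 at 0.09 and Scap at -0.01, and with Actb and Rplp0 scaling none rose and 5 fell. Srebf1, the relative of Srebf2 that favours fatty acid genes, had a log2 change of 0.25 in BAT (adjusted p = 0.143 in limma). Of the 8 genes, 1 rose and none fell in gWAT, where 9.99% of all genes tested rose and 7.85% fell. In gWAT, Srebf1 was the 1 gene of the list called, joined by 1 that fell with quantile normalization, while 4 rose with spike-in scaling, 3 rose with all 16 arrays in 1 fit, and in limma with the slide as a fixed block 0 passed (2 at an unadjusted p under 0.05). It stood at 6.01, 6.31, 6.28 and 6.28 in controls and at 7.54, 7.07, 7.08 and 6.86 in the KO arrays, with no overlap (log2 change 0.91, SE 0.16, adjusted p = 0.0103). Insig2 had a change of 0.21 in gWAT (adjusted p = 0.544).

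Among 8 genes of uptake and lysosomal release, 2 rose and 3 fell in BAT, where 27.5% of all genes tested rose and 34% fell. With spike-in scaling 5 rose and none fell, and with Actb and Rplp0 scaling 1 rose and 6 fell. Of the lipoprotein receptors, Vldlr (-1.01, adjusted p = 0.00119) and Lrp1 (-0.51, adjusted p = 0.00966) fell, and Scarb1, the HDL receptor, had a change of 0.04 and did not pass. With spike-in scaling the changes of Lrp1 (0.03) and Vldlr (-0.47, adjusted p = 0.0769) did not pass. Npc1, which exports cholesterol from the lysosome, rose (1.29, adjusted p = 0.000159), as did Lipa, the lysosomal lipase that frees it from its esters (0.63, adjusted p = 0.00935). The partner of Npc1 in that export, Npc2, fell (-0.54). Neither Npc2 with spike-in scaling (0.00, adjusted p = 0.994) nor Lipa with Actb and Rplp0 scaling (0.04, adjusted p = 0.857) kept its call. In gWAT, Lipa (1.45, adjusted p = 0.00472 in limma) and Npc1 (0.91, adjusted p = 0.0117) rose. None of the 8 fell, where 9.99% of all genes tested in gWAT rose and 7.85% fell. The receptors did not pass there, with changes of -0.08 for Lrp1, 0.12 for Vldlr and -0.54 for Scarb1 (adjusted p = 0.839, 0.745 and 0.0606). Of 9 macrophage markers, Gpnmb, Trem2 and Cd68 were called higher on the same arrays. The other 6 were not called, among them Adgre1 (0.73, adjusted p = 0.236 in limma) and Cd14 (-0.22). The part of macrophages in these rises was not tested.

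Among 10 genes of esterification and efflux, 5 rose and 2 fell in BAT, where 27.5% of all genes tested rose and 34% fell. These 5 were the largest rises in the pathway lists. Soat1, which esterifies cholesterol in most tissues, stood between -2.41 and -1.56 in BAT of controls and from 0.28 to 1.26 after the knockout (log2 change 2.76, SE 0.24, adjusted p = 3.37e-05). Nceh1, a hydrolase of cholesteryl ester found in macrophages, rose by 3.41 (SE 0.26, adjusted p = 1.84e-05), and Abcg1, which exports cholesterol to HDL, by 3.21 (SE 0.17, adjusted p = 5.46e-06). Soat2 was not well above background on any BAT control array, so it entered the test through the KO arrays alone. It was at least 8.14-fold higher in BAT of KO mice, the floor being the dimmest signal called above background on each array. Its call in limma (adjusted p = 4.5e-06) was fitted against signal below background and does not belong to that bound. Among genes above background on every array, 4 of the list rose and 2 fell. Ch25h, which makes the oxysterol 25-hydroxycholesterol, rose by 2.36 (SE 0.73, adjusted p = 0.0205), a call lost without control replicate 4, KO replicate 1 or KO replicate 4 (adjusted p from 0.0534 to 0.0574). The sterol-sensing receptors Nr1h3 (-0.84) and Nr1h2 (-0.62) fell. With spike-in scaling 6 of the 10 rose and none fell, and with Actb and Rplp0 scaling 4 rose and 3 fell. The macrophage marker sum was higher in the same 4 KO arrays, and its part in these rises was not tested.

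In gWAT, Abcg1 (1.37, adjusted p = 0.047 in limma) and Nr1h2 (0.45, adjusted p = 0.0419) were called higher of the same 10 genes. Over all genes tested there, 9.99% rose and 7.85% fell. With quantile normalization none of the 10 rose and 1 fell. Soat1 stood at 0.69, 0.30, 0.26 and 0.38 in controls and at 0.18, 0.56, 0.67 and 2.26 in the KO arrays, and Nceh1 at 1.25, 0.36, 0.23 and 0.78 and at 0.71, 1.23, 0.95 and 3.10. The high array in both was the 14-week KO array, which also had the highest macrophage sum, and neither gene passed (adjusted p = 0.406 and 0.265). The change was smaller in gWAT than in BAT for Nceh1 (difference -2.56, adjusted p = 0.00323), Soat1 (-2.25, adjusted p = 0.00227) and Abcg1 (-1.84, adjusted p = 0.00518). The 9 gWAT calls of the pathway lists became 0 with the slide as a block in limma (10 at an unadjusted p under 0.05), and between 5 and 10 when single arrays were left out, with 5 without control replicate 2 or KO replicate 2. Of the 9, Srebf1, Lipa, Npc1 and Sc5d kept their call whichever single array was left out.

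**Figure D4:**
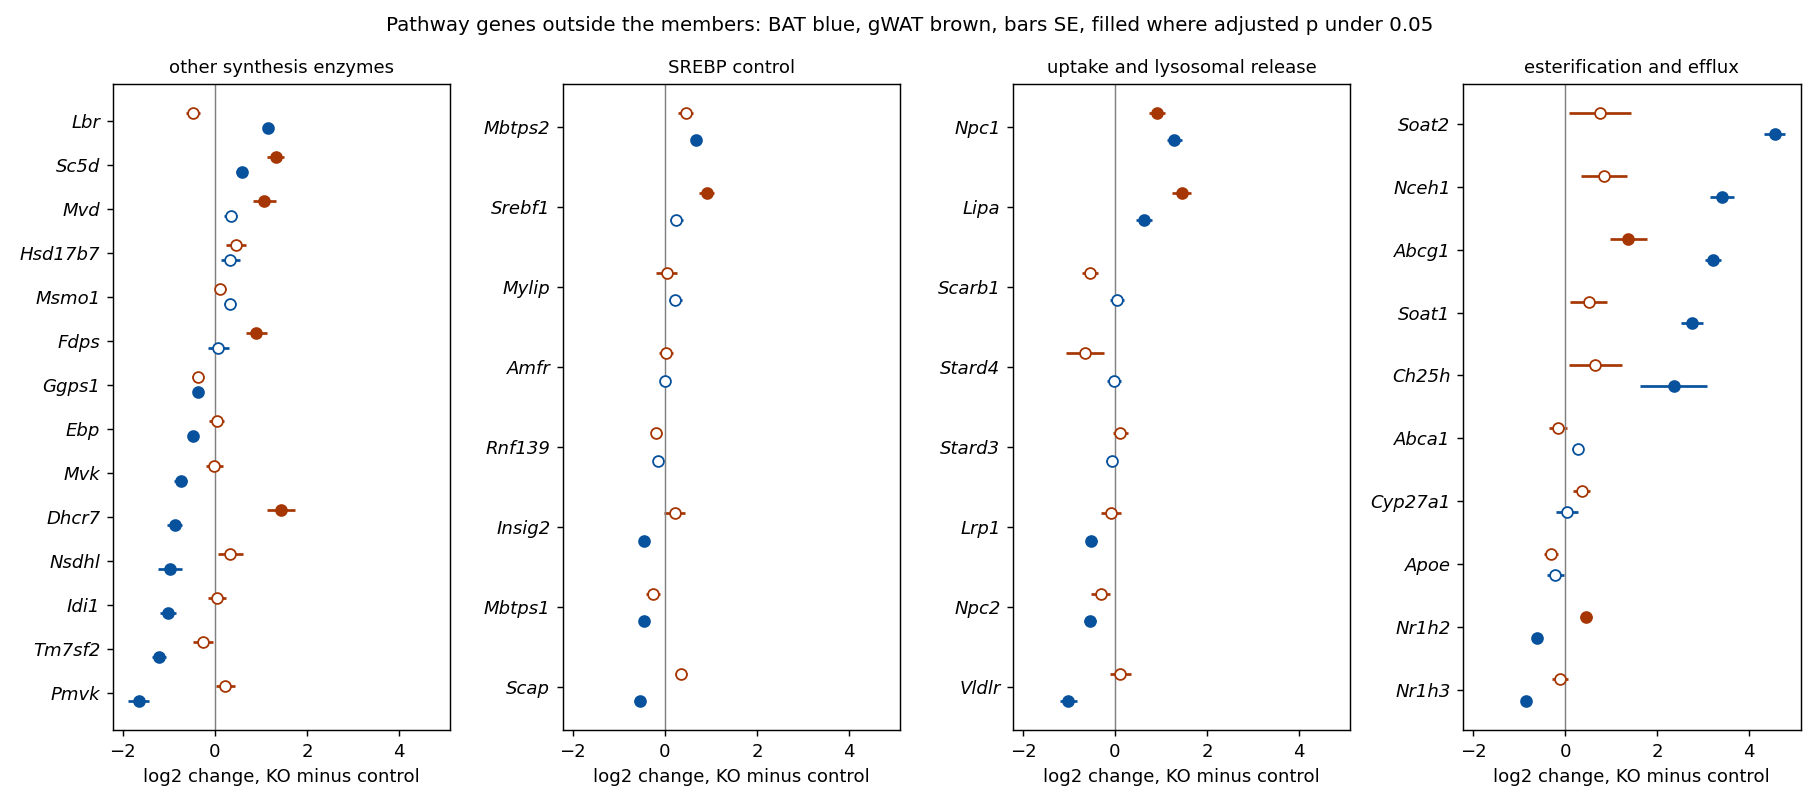
Log2 change between mice labelled Adipo-Pgam1 KO and littermate controls for the 40 pathway genes outside the members, in 4 lists, with BAT in blue, gWAT in brown and bars for the SE (n = 4 arrays a group); filled points passed an adjusted p of 0.05. Soat1, Nceh1 and Abcg1 lie near 3 in BAT, where the Soat2 point is fitted against signal below background, and Dhcr7 lies below 0 in BAT and above 0 in gWAT.

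The genes whose pattern over the 16 arrays was most like the mean of the members, each scaled to mean 0 and SD 1, were taken from the 12353 genes well above background on every array. Tax1bp3 came first with Pearson r of 0.875, followed by Mbp (0.861), Akirin1 (0.831), Agpat2 (0.831), Map2k6 (0.821), Angptl8 (0.821), Dcaf6 (0.818), Pick1 (0.808), Fzr1 (0.804) and Usp19 (0.801). The members themselves did not share a single pattern over the 16 arrays. Pearson r between members ran from -0.634 (Sqle and Fdft1) to 0.763 (Sqle and Lss), with Insig1 and Lss at 0.004. Likeness to their mean is therefore not likeness to each member. With group means taken out, Hmgcs1, Sqle, Insig1, Lss and Cyp51 varied together in gWAT. There r ran from 0.614 (Lss and Cyp51) to 0.973 (Hmgcs1 and Insig1). Pairs with Fdft1 or Srebf2 ran from -0.479 to 0.274 in gWAT. In BAT the pairs without Fdft1 and Srebf2 ran from -0.237 (Hmgcs1 and Lss) to 0.75 (Sqle and Lss). The 16 points share slides, tissues and genotypes, and these values describe likeness over these arrays.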

How the data were processed

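Agilent 1-colour arrays, 16 in all with 4 a group, carried RNA of either fat depot from KO mice or their littermates. The authors deposited scanner files of Agilent Feature Extraction 10.7.1.1, whose processed signal is an intensity after background subtraction, and a table in which each value is close to the ratio of that intensity to the array's 75th percentile (the value table holds the authors' processed values of the same arrays). The deposited median intensities were used for the normexp alternative. Here outlier spots were left out, spots of a probe averaged, and log2 intensity taken over each array's 75th percentile, which spanned 401.3 to 451.3 in BAT controls, 650.2 to 916.2 in BAT of KO mice, 570.3 to 855.3 in gWAT controls and 656.8 to 831.3 in gWAT labelled KO. The share of probes above background ran from 50% to 62.2%, and precision is limited by the number of arrays. No spot was saturated.

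Of the probes with a RefSeq accession, 91.9% matched a symbol, and the brightest probe stood for a gene. Genes entered a test when every one of the 4 arrays in any group compared showed them well above background. Groups were compared with limma 3.58.1 in R 4.3.3, with Benjamini-Hochberg adjustment over all genes tested. The fits were also run on simulated data with independent noise and no slide effect. That check therefore does not cover the overlap of slide and genotype. Single probes were compared with a two-sided exact permutation test, which cannot go below 0.0286 here. The labels give no more than a sample number, so p-values measure the spread between these arrays. Whether the 2 tissues came from the same mice is not given in the sources used here.

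The members and lists were chosen with earlier results of these data known. All members were named, and of each pathway list up to 5 called genes by size of change, with Srebf1, Insig2 and the receptors at any value. Some genes of the lists are not reported here, and Acat2 had no matched probe. Alternatives changed the scaling (quantile, median, spike-in, Actb with Rplp0), background correction, filter, probe choice, slide or replicate block, the samples fitted and the test, including the methods' t-test.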

Additional observations from a re-analysis of the deposited data

Results flagged for a closer look

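The genotype change differed between gWAT and BAT, by limma's test of the difference itself, for Pgam1 (2.69 on the log2 scale) and for 4 members, Fdft1 (1.82), Hmgcs1 (1.30), Lss (1.20) and Cyp51 (0.87), all more positive in gWAT. Among the pathway genes it was more positive in gWAT for the enzymes Dhcr7 (2.30), Pmvk (1.87), Nsdhl (1.32) and Idi1 (1.08), for Scap (0.91), Srebf1 (0.67) and Insig2 (0.66), for Vldlr (1.13) and Lipa (0.82), and for Nr1h2 (1.07). It was more negative in gWAT for Soat2 (-3.79, fitted against signal below background in BAT controls), Nceh1 (-2.56), Soat1 (-2.25), Abcg1 (-1.84), Lbr (-1.63) and Scarb1 (-0.58). The Srebf1 difference was uncalled with quantile normalization (0.19, adjusted p = 0.49), spike-in scaling (adjusted p = 0.113) and the slide as a fixed (0.338) or random (0.0545) block, and the Lipa difference with quantile normalization (0.55, adjusted p = 0.153), spike-in scaling (0.194) and the slide as a fixed (0.45, adjusted p = 0.491) or random (0.0755) block. With the slide as a fixed block the Scap (0.58, adjusted p = 0.0865), Vldlr (1.41, adjusted p = 0.0521), Idi1 (1.29, adjusted p = 0.0562) and Soat2 (-2.01, adjusted p = 0.212) differences were uncalled too. The Insig2 and Scarb1 differences kept their call in 5 and 4 of the 16 fits that left out a single array.

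A single array lay far from the other 3 of its group in 6 of 136 groups of 4 examined over the members, Pgam1 and the named pathway genes (its gap to the nearest array, over the group's range, was above Dixon's 95% critical value, which chance gives in about 1 in 20 groups). Srebf2 in gWAT labelled KO was low in replicate 3 (gap 0.930 of the range), at -1.53 against -1.11 to -1.08. Soat2 in BAT of KO mice was high in replicate 3 (0.882), and Mbtps2 in BAT of controls was low in replicate 2 (0.843). Srebf1 in gWAT of controls was low in replicate 1 (0.894). Dhcr7 was high in gWAT control replicate 3 (0.910), at -0.91 against -2.14 to -2.03, and in gWAT KO replicate 1 (0.926), at 0.25 against -0.56 to -0.50.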

How the results depend on the processing

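The 4 member calls in BAT kept their direction under every alternative, and Fdft1, Insig1 and Sqle their side of the threshold. In gWAT 1 member was called, but 2 with median centring, with normexp background or when above background on every array, 4 with spike-in scaling or all 16 arrays in 1 fit, 0 with the slide as a fixed block in limma (2 at an unadjusted p under 0.05), and between 1 and 2 without single arrays. The 9 pathway calls in gWAT became 16 with spike-in scaling, 14 with all 16 arrays in 1 fit, 5 with no filter on dim probes or by the methods' t-test, 0 with the slide as a fixed block in limma (10 at an unadjusted p under 0.05) and between 5 and 10 without single arrays. The 2525 gWAT calls over all genes became 184 with the slide as a fixed block, 1384 with median centring, 5086 with spike-in scaling, 1138 with no filter and 1612 by the methods' t-test, and the 7162 calls for the difference between tissues became 3265 with that block. The member and pathway counts for the difference between tissues became 1 and 9 with the slide as a fixed block. The 5 members called between control tissues became 3 with quantile normalization, the slide as a random block or the methods' t-test, 2 with the slide as a fixed block, and between 3 and 4 without single arrays. The causes were not tested.

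With the replicate block, the pathway count in gWAT was 6 and the count over all genes 1087 in place of 2525. Same-numbered arrays of the genotypes had deviations correlated between -0.16 and 0.55 in gWAT and between 0.0087 and 0.19 in BAT, so the number was not taken to pair the samples.

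Of the values that changed sign under an alternative, Insig2, Lrp1 and Mbtps1 in BAT and the Scarb1 difference between tissues had been called, and the others had not. In BAT, spike-in scaling gave Hmgcs1 0.07, Cyp51 0.22, Insig2 0.09, Lrp1 0.03 and Mbtps1 0.08, Actb and Rplp0 scaling gave Srebf2 -0.25, Srebf1 -0.34 and Scarb1 -0.55, and the slide block gave Hmgcs1 0.12. Scarb1 in BAT was -0.27 over all its probes, -0.31 and -0.02 with the slide as a fixed and a random block, and between -0.03 and 0.16 without single arrays. In gWAT, Vldlr was -0.03 with quantile normalization and between -0.02 and 0.29 without single arrays. Lrp1 in gWAT was 0.04 with median centring, 0.36 with spike-in scaling and between -0.24 and 0.08 without single arrays. Fdft1 in gWAT was 0.13 with spike-in scaling, Insig2 -0.31 with the slide block, and Srebf2 -0.03 with Actb and Rplp0 scaling and between -0.10 and 0.14 without single arrays. For the difference between tissues, Srebf2 was 0.23 with Actb and Rplp0 scaling, Scarb1 0.02 over all its probes and 0.19 with the slide block, and Lrp1 -0.12 with the slide block. Between control tissues, Sqle was -0.03 with quantile normalization, -0.16 with spike-in scaling, -0.10 with the slide block and between -0.09 and 0.21 without single arrays, and Actb and Rplp0 scaling gave Srebf2 0.15 and Srebf1 0.20.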
